A study of Mus musculus with 16 samples.

Results

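Mt1 and Mt2 encode metallothionein-1 and metallothionein-2, small cysteine-rich proteins that bind zinc and copper in the cytosol. They were followed here through every array of the series by taking the non-control probes whose gene name in the scanner files is Mt1 or Mt2. These are 2 of 34650 gene names and 3 of the 55681 probes, of which 2 belong to Mt1 and 1 to Mt2. The genes were chosen by the difference between Het and WT in the polysome arrays, where Mt1 had drawn attention in an earlier look at these data, and Mt2 was taken along as its neighbour and closest relative. The polysome values and every ratio that contains them are therefore given as descriptions with no test.

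The study asked how loading of mRNA on ribosomes differs in the skeletal muscle of mice with 1 mutant copy of Eif6, a translation initiation factor that also takes part in making the large ribosomal subunit. Gastrocnemius muscle came from 3 Eif6 heterozygous male mice (Het, Eif6+/-) and 3 wild-type littermates (WT, Eif6+/+) on the C57BL6 background, all 8 to 16 weeks old and untreated. RNA of each mouse was isolated from whole muscle and from the polysome and monosome fractions of a sucrose gradient, and each preparation was hybridised to its own one-colour array. Whole muscle and polysomes were covered by 3 arrays per genotype and monosomes by 2, from WT mice 1 and 2 and Het mice 1 and 3. The mutation is carried by every cell of the Het animals, so a value from whole tissue does not show in which cell it arose, and fewer cells of a type cannot be told apart from less RNA per cell.

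Metallothionein genes are switched on by metals through the zinc-sensing factor MTF-1, which binds metal response elements in their promoters, and they are also induced by glucocorticoids, oxidative stress and inflammation. Their transcripts are short, and the proteins store zinc and take up reactive oxygen species. In skeletal muscle, both mRNAs are well known to climb during fasting, disuse and other forms of wasting. Mt3 and Mt4, the other members of the mouse family, are best known from brain and from stratified epithelium.

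The 4 genes lie in a row on chromosome 8. In mm9, the build of the array design, the leading Mt1 probe covers chr8:96704165-96704224 and the Mt2 probe chr8:96697371-96697430, a distance of 6.79 kb, while the Mt3 probe lies a further 19.44 kb beyond Mt2. The leading Mt1 probe was designed on NM_013602 and the Mt2 probe on NM_008630. The exon holding each probe was not looked up, because no annotation of that build was used. Probes are 60 bases long, and the best ungapped alignment of the Mt1 with the Mt2 probe has 24 identical bases. The second Mt1 probe, at chr8:96703844-96703903 and built on a predicted variant, was well above background on 1 of 16 arrays (WT whole muscle 1, with a processed signal of 38.4) and was not tested. The other 2 probes were well above background on 16 of 16 arrays, and they alone carry the values that follow.

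The promoters are shown because metal-driven transcription is what the pair is best known for. The 250 bases before each start site are printed from RefSeq (GRCm38.p6, plus strand, chr8:94178839-94179088 for Mt1 and chr8:94172368-94172617 for Mt2), with matches to the metal response element core (TGCACNC or TGCGCNC) and to the antioxidant response element core (TGACNNNGC) in capitals, both strands searched.
Mt1: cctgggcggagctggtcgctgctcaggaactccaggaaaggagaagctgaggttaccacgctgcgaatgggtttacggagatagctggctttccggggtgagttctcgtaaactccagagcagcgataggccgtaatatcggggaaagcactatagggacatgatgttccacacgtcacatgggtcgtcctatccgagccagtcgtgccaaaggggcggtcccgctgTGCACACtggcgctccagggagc
Mt2: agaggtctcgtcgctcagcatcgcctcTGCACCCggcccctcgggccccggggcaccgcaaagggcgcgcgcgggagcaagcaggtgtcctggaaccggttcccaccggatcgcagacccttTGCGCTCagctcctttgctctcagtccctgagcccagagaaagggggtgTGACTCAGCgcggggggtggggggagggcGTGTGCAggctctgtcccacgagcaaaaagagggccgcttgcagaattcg
The Mt1 stretch held 1 metal response element core, at position -23 from the start. The Mt2 stretch held 3, at positions -223, -128 and -50, the last on the minus strand, and 1 antioxidant response element core at -79. Of 32851 promoters of this length, 21.4% held at least 1 and 1.26% at least 3 metal response element cores, and 10.2% held at least 1 antioxidant response element core. With the first 50 bases after the start included, Mt1 held 3 metal response element cores and Mt2 held 4, where 1.97% of promoters held at least 3 and 0.517% at least 4. In Mt1, cores lay at positions 3 and 21 after the start. The counts hold for the RefSeq start of each gene. Bases more than 50 after it were not searched, so elements of either kind there would not be counted. A match of letters describes the sequence and is no evidence of binding.

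Before the levels, 3 facts on the arrays bear on them. Muscle fibre markers (7 of 7 tested, among them Acta1 and Ckm) summed to between 18.70 and 19.74 on the log2 scale on all arrays, so the defining markers of the labelled tissue were present. WT polysome 2 and WT monosome 2 stood apart in the balance of 5′ and 3′ probes of the same transcript, with medians of 0.60 and 0.81 (log2, 1182 probe pairs) where the other 14 arrays lay between -1.35 and -0.79. Array brightness, the 75th percentile of the processed signal, ran from 42.3 to 150.1 in WT whole muscle and from 13.5 to 33.0 in Het whole muscle without overlap. The brighter of the 2 tested probes of Eif6, the targeted gene, had a Het minus WT difference of -0.93 (SE 0.29, log2) in whole muscle and -1.32 in polysomes. In whole muscle the exact two-sided permutation p was 0.1, the smallest that 3 against 3 allows, and the limma adjusted p was 0.611. The other Eif6 probe gave -1.07 in whole muscle and -1.20 in polysomes.

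In whole muscle both metallothioneins were abundant, and the WT mice differed from one another far more than the genotypes did. The Mt1 level, as log2 quantile-normalized signal, was 12.22, 8.59 and 10.94 in WT mice 1, 2 and 3 and 9.12, 9.64 and 8.74 in Het mice 1, 2 and 3. WT mouse 2 was thus the lowest of the 6, below all Het mice, while WT mice 1 and 3 were the highest. The processed signal of the same probe in the WT mice was 18856, 560.1 and 2432, before any normalization between arrays. The Mt2 level was 12.37, 6.67 and 10.99 in WT and 7.94, 8.83 and 7.13 in Het, with the same WT mouse at the bottom and the same WT pair at the top. WT whole-muscle levels spanned 12.4-fold for Mt1 and 51.7-fold for Mt2, against 1.87-fold and 3.24-fold among Het mice. On its own array the Mt1 probe outranked between 91.9% and 98.7% of all probes in WT and between 92.4% and 94.9% in Het. For the Mt2 probe these shares were lower at the bottom end, 83.8% to 98.8% in WT and 86.0% to 92.7% in Het.

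The Het minus WT difference in whole muscle was -1.42 on the log2 scale for Mt1 (SE 1.04, 95% interval -3.67 to 0.83) and -2.04 for Mt2 (SE 1.69, 95% interval -5.69 to 1.60). Neither passed the test (limma adjusted p = 0.988 for Mt1 and 1 for Mt2, exact two-sided permutation p = 0.4 for each), and the groups overlapped. Both intervals run from a level several-fold lower in Het to one that is higher in Het. No probe passed an adjusted p of 0.05 in whole muscle (0% of 20250 in either direction), although 1161 probes, or 5.73%, had an unadjusted limma p below 0.05. The size turned on single WT mice. Without WT mouse 1 the differences were -0.60 for Mt1 and -0.86 for Mt2, and without WT mouse 2 they were -2.42 and -3.71. With array brightness as a term in the fit they turned to 0.75 and 1.46. The arrays of slide 1 alone gave -1.76 and -3.01, and those of slide 2 gave -1.28 and -1.58. In whole muscle WT mouse 3 was the only WT mouse on slide 1, and Het mouse 1 the only Het mouse on slide 2.

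**Figure D1:**
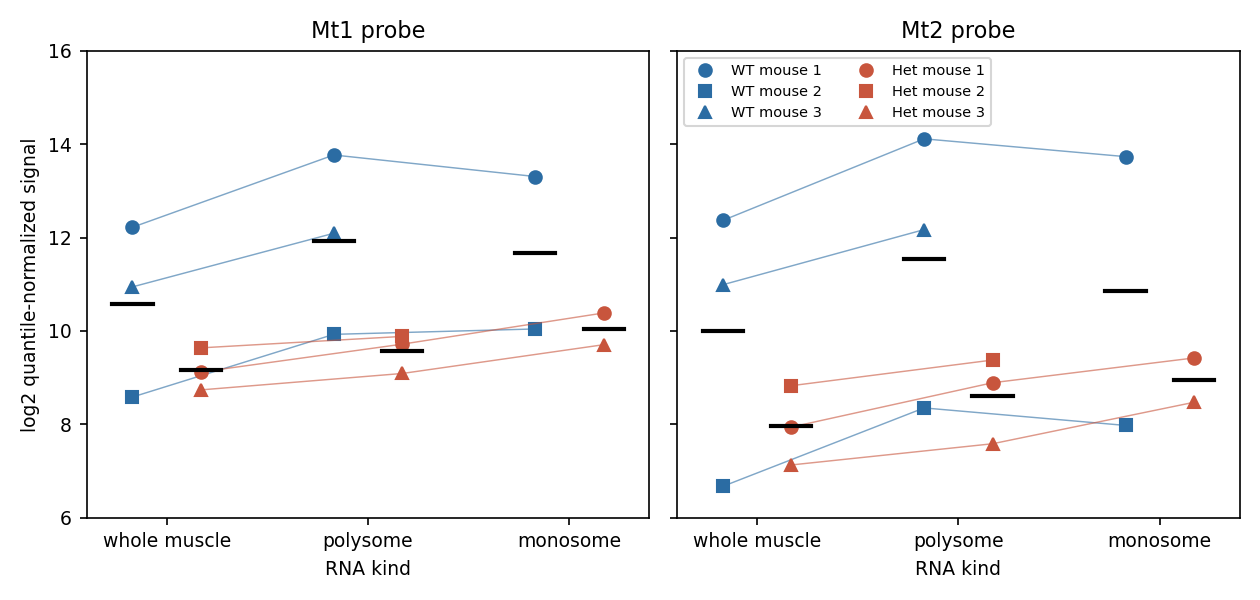
Levels of Mt1 (left) and Mt2 (right) as log2 quantile-normalized signal on the 16 arrays, by RNA kind, with WT in blue and Het in red, a marker shape for each mouse, thin lines joining arrays of the same mouse and black bars at the group means. WT mouse 1, and WT mouse 3 where it was measured, lie above all Het mice in each RNA kind, and WT mouse 2 lies among or beside the Het mice.

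Polysomes, the fractions in which several ribosomes sit on an mRNA, showed the same order of mice within each genotype. The Mt1 level was 13.77, 9.93 and 12.09 in WT mice 1, 2 and 3 and 9.72, 9.88 and 9.09 in Het mice 1, 2 and 3. The genotypes did not overlap, but WT mouse 2 lay only 0.044 above the highest Het mouse, and they did overlap with 75th percentile scaling, with normexp background correction and in the authors' processed table. The Mt2 level was 14.11, 8.35 and 12.17 in WT and 8.89, 9.38 and 7.59 in Het, so that WT mouse 2 lay within the Het range. At these values WT polysome 1 held Mt2 above 99.7% of the probes of its array.

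The fitted polysome difference was -2.37 for Mt1 (SE 1.04, 5.15-fold lower in Het) and -2.93 for Mt2 (SE 1.69, 7.61-fold lower), values by which Mt1 was chosen and which carry no test here. Counting from the most negative of 20250 differences, Mt2 stood in place 3 and Mt1 in place 12. The places were 103 and 494 in whole muscle, 641 and 1357 in monosomes, and 2142 and 1972 for the ratio of polysome to whole muscle. Mt1 belonged to the 8.74% of probes that were lower in Het with no overlap between the groups in polysomes. By the threshold the study used, an absolute log2 difference above 1 with an unadjusted p below 0.05, 1.26% of probes were lower and 2.19% higher in Het polysomes, and 0% passed an adjusted p of 0.05 in either direction with limma (1522 probes, 7.52%, at an unadjusted p below 0.05). Without WT mouse 1 the differences were -1.45 and -1.64, and without WT mouse 2 they were -3.37 and -4.52. The arrays of slide 1 alone gave -2.13 for Mt1 and -2.34 for Mt2, and those of slide 2 gave -2.61 and -3.69. Each slide held 1 or 2 polysome arrays per genotype, and on slide 1 the Het array read Mt2 higher (8.89) than WT polysome 2 (8.35).

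Monosomes, the fraction with a single ribosome, were measured in only 2 mice per genotype. The Mt1 level was 13.31 and 10.04 in WT mice 1 and 2 and 10.39 and 9.71 in Het mice 1 and 3. The Mt2 level was 13.73 and 7.98 in WT and 9.42 and 8.47 in Het. For both genes WT mouse 1 was far above the rest, and WT mouse 2 lay between the Het mice for Mt1 and below both for Mt2. The Het minus WT difference was -1.63 for Mt1 (SE 1.27, 95% interval -4.38 to 1.12, limma adjusted p = 0.358) and -1.91 for Mt2 (SE 2.07, 95% interval -6.37 to 2.56, limma adjusted p = 0.504). The exact two-sided permutation p was 0.667 for Mt1 and 1 for Mt2, where 2 against 2 allows none below 0.333. Across the array 0.104% of probes were lower and 0.395% higher in Het monosomes at an adjusted p of 0.05. Without WT mouse 1 the monosome differences were 0.0029 for Mt1 and 0.97 for Mt2, and without the WT arrays that stood apart, polysome 2 and monosome 2, they were -3.26 and -4.78.

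The order of the 6 group means was the same for both genes, from WT polysome (11.93 ± 1.93 for Mt1 and 11.55 ± 2.93 for Mt2, SD, n = 3) through WT monosome, WT whole muscle, Het monosome and Het polysome to Het whole muscle (9.17 ± 0.45 and 7.97 ± 0.85, SD, n = 3). Every neighbouring pair in this order overlapped. The order of the mice was steadier than that of the groups: among WT, mouse 1 was above mouse 3 and mouse 3 above mouse 2 in both RNA kinds measured in all 3, and among Het, mouse 2 was above mouse 1 and mouse 1 above mouse 3, for both genes. Few probes varied as much between WT mice. The SD of Mt1 in WT whole muscle was larger than that of 99.8% of tested probes and that of Mt2 larger than 99.97%, whereas in Het whole muscle the shares were 64.1% and 85.6%.

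**Figure D2:**
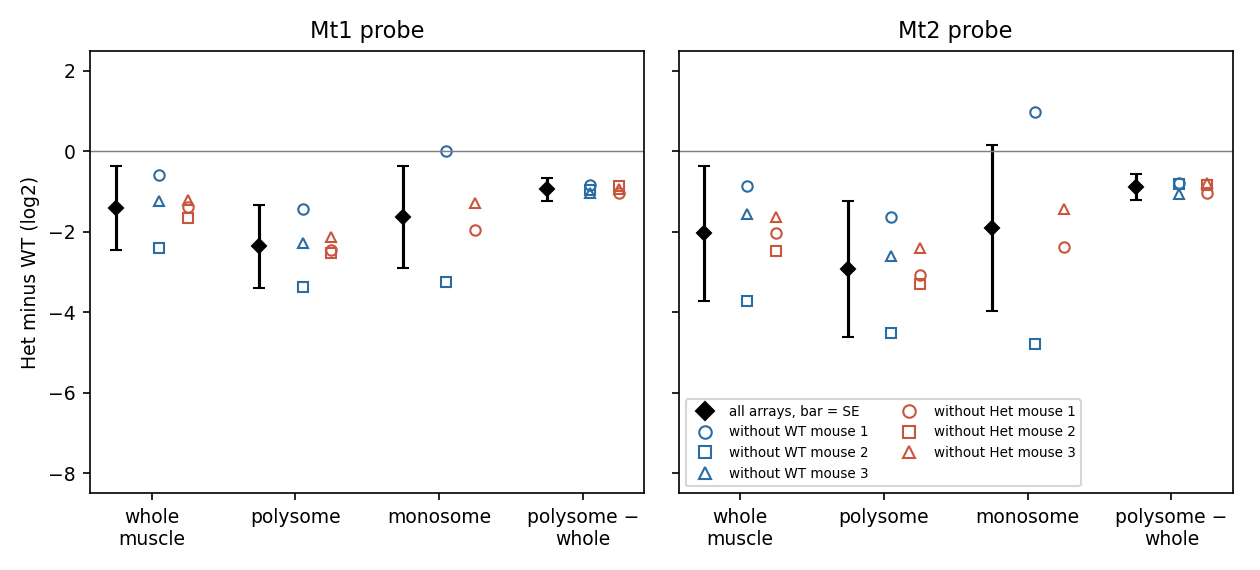
Difference between Het and WT (log2, y axis) of Mt1 (left) and Mt2 (right) in whole muscle, polysomes, monosomes and for the polysome to whole muscle ratio, with all arrays (black diamonds, bars of 1 SE) and with each mouse left out (open symbols, blue for WT and red for Het). Leaving out WT mouse 1 moved the 3 level differences toward or past 0 and leaving out WT mouse 2 moved them away from it, whereas the ratio stayed between -1.05 and -0.85 for Mt1 and between -1.06 and -0.78 for Mt2.

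With each mouse as its own reference the spread was far smaller, with an SD of 0.20 in WT for the Mt1 ratio of polysome to whole muscle where the SD of the polysome level was 1.93. The log2 ratio of polysome to whole-muscle signal for Mt1 was 1.55, 1.34 and 1.15 in WT mice 1, 2 and 3 and 0.60, 0.25 and 0.35 in Het mice 1, 2 and 3. For Mt2 the ratio was 1.75, 1.68 and 1.18 in WT and 0.95, 0.55 and 0.45 in Het. On this scale both transcripts thus read higher in polysomes than in whole muscle in all 6 mice, and by more in each WT than in any Het mouse. The scale places a probe relative to the others on its array. The share of probes with ratios above 0 in all 6 mice was not counted. WT mouse 2, which had the lowest whole-muscle level, had a ratio like that of its group. The Het minus WT difference of the ratio was -0.95 for Mt1 (SE 0.29) and -0.88 for Mt2 (SE 0.32), beside a median of 0.16 over all tested probes, and 11.9% of probes had ratios lower in Het without overlap. These differences are descriptions, since they contain the polysome arrays.

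Array brightness differed between the arrays of a mouse as well. The polysome array was dimmer than the whole-muscle array by 1.46 and 1.24 (log2) in WT mice 1 and 2, and brighter by 0.64 in WT mouse 3 and by 1.16, 2.98 and 1.73 in Het mice 1, 2 and 3. With 75th percentile scaling the Mt2 ratios overlapped, at 1.52, 1.60 and 0.64 in WT and 0.93, 0.66 and 0.39 in Het, and the difference was -0.60, while the Mt1 ratios stayed apart. With the brightness difference as a term the values were -0.52 for Mt1 and -0.28 for Mt2. The part of brightness in the ratio was not tested beyond this term.

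The step from whole muscle to monosomes looked different. The log2 ratio of monosome to whole-muscle signal was 1.09 and 1.46 in WT mice 1 and 2 and 1.26 and 0.97 in Het mice 1 and 3 for Mt1, and 1.37 and 1.31 in WT and 1.48 and 1.34 in Het for Mt2. The genotypes overlapped for both genes, except that the Mt2 ratios were higher in both Het mice with 75th percentile scaling (1.22 to 1.33 against at most 1.095 in WT) and in the authors' processed table (1.15 to 1.31 against at most 1.103). The share of all probes apart in this ratio was not counted, and 2 mice against 2 allow no exact p below 0.333. From monosome to polysome, the Mt1 ratio was 0.46 and -0.12 in WT and -0.67 and -0.62 in Het, and the Mt2 ratio was 0.38 and 0.37 in WT and -0.53 and -0.89 in Het. Mt2 was thus higher in polysomes than in monosomes in both WT mice and lower in both Het mice, a pattern that 5.03% of tested probes shared. Both WT mouse 2 arrays of this last ratio are the ones with the unusual balance of 5′ and 3′ probes.

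**Figure D3:**
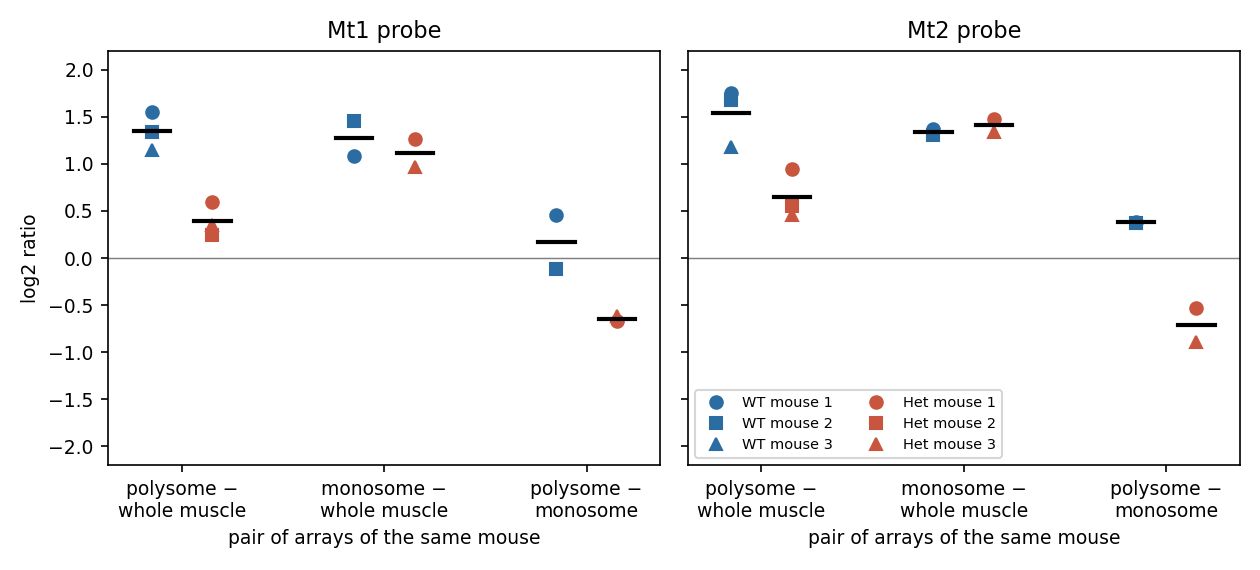
Log2 ratios between arrays of the same mouse for Mt1 (left) and Mt2 (right), with WT in blue, Het in red, a marker shape per mouse and black bars at the means. The polysome to whole muscle ratio lies between 1.15 and 1.75 in WT and between 0.25 and 0.95 in Het. The monosome to whole muscle ratio overlaps between genotypes on this scale, though not for Mt2 with 75th percentile scaling or in the authors' processed table. The share of all probes apart in the monosome to whole muscle ratio was not counted.

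Among 15902 other gene names, the probe most like Mt1 over the 16 arrays was Mt2 and the reverse, with a Pearson r of 0.983 (0.993 over the 14 arrays without WT polysome 2 and WT monosome 2). These arrays come from 6 mice, so the points are not independent, and r is given only as a measure of likeness. Next to Mt1 came Angptl4 (r = 0.979), a secreted inhibitor of lipoprotein lipase, Sirpa (0.968), a receptor of myeloid cells, Ltbp2, Pip5k1a and S100a9. Next to Mt2 came Ccl6 (0.964), a chemokine, S100a9 (0.960), a calcium-binding protein abundant in neutrophils, Wfdc17, Pip5k1a and Sirpa. Over the 14 arrays the order changed in part, to Angptl4 (0.983), Prg4, Ccl6, Ptpn18 and Sirpa for Mt1 and to Prg4 (0.991), Angptl4, Ccl6, Wfdc17 and Lcn2 for Mt2, so S100a9 and Pip5k1a left both lists. Angptl4 in whole muscle read 8.90, 6.22 and 7.93 in WT and 6.44, 7.16 and 5.51 in Het, the same order of mice within each genotype as for the metallothioneins. S100a9 read 9.41, 3.33 and 6.81 in WT and 2.93, 3.25 and 1.43 in Het, again with WT mice 1 and 3 on top, and was well above background on 10 of 16 arrays. None of the 3 Het whole-muscle arrays was among them, so its Het values there have no order. Angptl4 and S100a9 were picked for their likeness over these same arrays, so a shared order of mice follows largely from that choice.

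The sum of leukocyte markers was also highest in WT mice 1 and 3. The summed signal of the 6 macrophage and leukocyte markers that were tested (Cd68, Csf1r, Lyz2, Emr1, Cd14 and Lgals3, of 7 listed, as Ptprc did not pass the filter) was 11.77, 9.08 and 11.08 in whole muscle of WT mice 1, 2 and 3 and between 9.20 and 9.32 in Het. In polysomes the sum was 12.40, 9.89 and 11.47 in WT and between 9.38 and 9.85 in Het, and in monosomes it was 11.64 and 9.84 in WT and 9.22 and 9.04 in Het. WT mouse 2 was close to the Het mice in the whole-muscle and polysome sums. The sum is carried by the bright probes of Cd68, Csf1r and Lgals3. Cd14 read 6.24, 5.88 and 5.83 in WT whole muscle, with mouse 3 the lowest, and in monosomes Lyz2, Emr1 and Cd14 were higher in WT mouse 2 than in WT mouse 1. In whole muscle all 6 markers had a difference below 0, and 2 of them, Lyz2 and Lgals3 (-2.22), were lower in Het by the study's threshold, which 2.95% of probes met in that direction and 1.63% in the other. Neither passed adjustment (limma adjusted p = 0.498 and 0.866). None of the whole-muscle arrays of Het mice read Lyz2 well above background, so its level in them has only a bound, at least 3.68-fold lower than in WT, taken against the dimmest signal well above background on each array. In polysomes Lgals3 (-2.51) alone of the 6 met the threshold. The part of these cells in the metallothionein values was not tested. The sums of the other cell types differed in their order. The adipocyte sum in polysomes was 13.24, 11.40 and 13.15 in WT and 12.66 to 13.10 in Het, which also put WT mice 1 and 3 on top, but by little, and in whole muscle WT mouse 3 (11.44) lay below Het mouse 2 (11.55). The endothelial sum in polysomes was 11.19, 13.25 and 12.06 in WT, with mouse 2 the highest, and the neutrophil sum (S100a9 and Csf3r, as S100a8 did not pass the filter) in whole muscle was 12.06 to 12.23 in Het and highest in WT mouse 2, at 12.27. Csf3r carried this sum, and S100a9 went another way, at least 5.03-fold lower in Het than the WT mean in whole muscle by the bound used for Lyz2. The Het floor for S100a9 was 4.18 and WT mouse 2 read 3.33, so this bound also rests on WT mice 1 and 3. The erythroid sum was 14.45, 15.31 and 14.30 in WT polysomes and 13.27 to 13.72 in Het polysomes, with WT mouse 2 the highest. The fibroblast sum was 15.07, 15.12 and 15.01 in WT polysomes and 14.40 to 14.66 in Het polysomes, so for these 2 lists the WT polysome arrays, that of mouse 2 included, lay above the Het ones. In whole muscle the erythroid sum was 13.87, 13.23 and 13.38 in WT and 13.53 to 13.74 in Het, with WT mouse 2 the lowest of all. The fibroblast sum there was 14.04, 13.74 and 14.25 in WT and 13.46 to 14.09 in Het, so the genotypes overlapped in both sums.

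**Figure D4:**
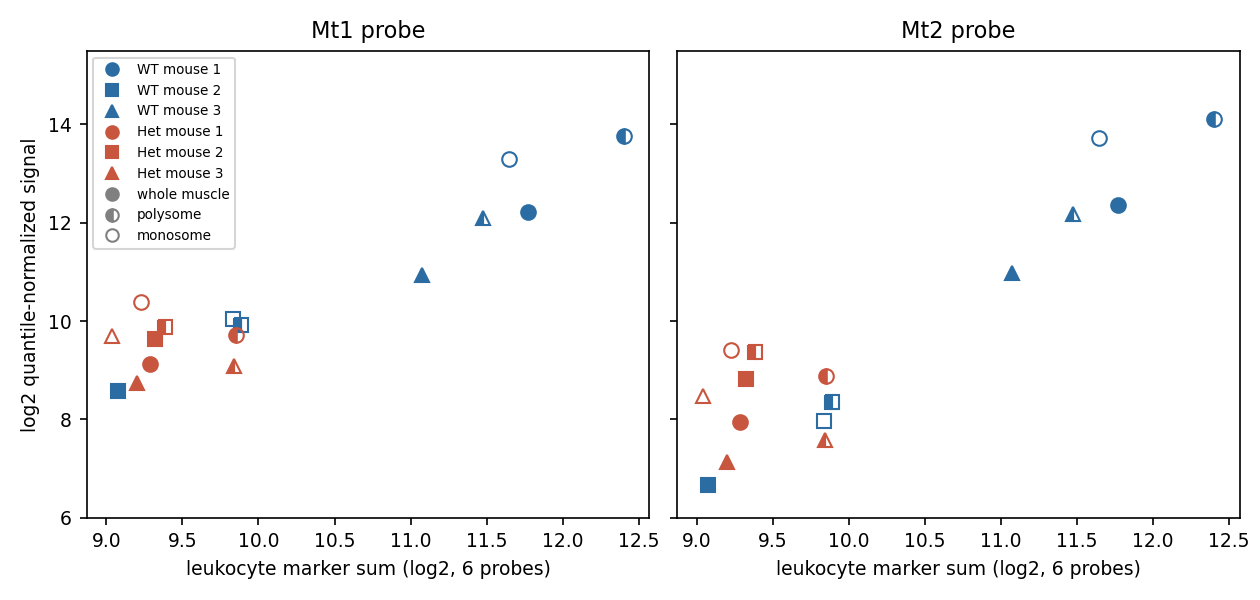
Level of Mt1 (left) and Mt2 (right) against the log2 of the summed signal of 6 leukocyte marker probes on the 16 arrays, with colour for genotype, marker shape for mouse and fill for RNA kind. The arrays of WT mice 1 and 3 lie at marker sums of 11.08 to 12.40 and all others at 9.04 to 9.89.

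Within the metallothionein family, Mt3 followed part of the pattern. In polysomes Mt3 read 8.72, 7.61 and 8.24 in WT mice 1, 2 and 3 and 6.63, 6.64 and 6.88 in Het. The groups did not overlap, as for 8.74% of all probes in that direction, and the difference was -1.47 (SE 0.37). It was past the study's threshold, as were 1.26% of all probes in that direction, but not past adjustment (limma adjusted p = 0.524, exact two-sided permutation p = 0.1). In whole muscle Mt3 read 8.03, 6.49 and 7.10 in WT and 6.38, 6.17 and 6.71 in Het, a difference of -0.78 (limma adjusted p = 0.879). In these 2 RNA kinds Mt3 had the WT order of mouse 1 over 3 over 2, with narrower steps, while among Het mice it was highest in mouse 3, where Mt1 and Mt2 were lowest. In monosomes Mt3 read 8.63 and 8.88 in WT and 6.62 and 6.72 in Het, a difference of -2.09 (limma adjusted p = 0.0617, exact two-sided permutation p = 0.333) with no overlap, as for 23.7% of all probes. The log2 ratio of polysome to whole-muscle signal for Mt3 was 0.69, 1.11 and 1.14 in WT mice 1, 2 and 3. In Het mice 1, 2 and 3 it was 0.25, 0.46 and 0.17, lower without overlap, as for 11.9% of all probes. The polysome to monosome ratio of Mt3 was 0.083 and -1.27 in WT and 0.015 and 0.16 in Het, so the genotypes overlapped, unlike for Mt2. The Mt4 probe was well above background on 3 of 16 arrays and was not tested.

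Genes that sense or move zinc were spread around 0. Of the 27 genes of the zinc list (Mtf1, Mt3, Mt4 and the Slc30 and Slc39 transporters), 17 were tested. In whole muscle none met the study's threshold, 9 of 17 lay below 0, and the median difference was -0.025 beside -0.026 over all probes. In polysomes Mt3 was lower and Slc30a9 (1.35, SE 0.57), a zinc transporter of intracellular membranes, higher by the study's threshold, which 1.26% and 2.19% of all probes met in these directions, with a median of -0.046 beside 0.039. Mtf1, the metal sensor that drives both metallothioneins, differed by 0.26 (SE 0.25) in whole muscle and 0.34 (SE 0.25) in polysomes. Slc30a1, the zinc exporter of the plasma membrane and another MTF-1 target, differed by 0.50 (SE 0.57) and 0.78 (SE 0.57). Neither Mtf1 nor Slc30a1 met the threshold. In monosomes 2 zinc genes were higher and 1 lower by it (1 and 1 without WT polysome 2 and WT monosome 2), where 17.2% of all probes were higher and 11.5% lower (4.72% and 3.57% without those arrays).

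Genes of the other known inducers were read in the same way. Of 20 glucocorticoid-response genes, 19 were tested, with no call in whole muscle and a median of 0.32 beside -0.026 over all probes. In polysomes Sgk1 (1.19, SE 0.35), a kinase induced by glucocorticoids, was higher and Angptl4 (-2.02, SE 0.81) lower by the study's threshold (2.19% and 1.26% of all probes). The polysome median was 0.33 beside 0.039 over all probes. The receptor gene Nr3c1 differed by 0.16 (SE 0.69) in whole muscle and 0.23 (SE 0.69) in polysomes, without a call. Its monosome difference of 1.92 (SE 0.84) met the threshold and rested on WT monosome 2, which read 5.45 where WT monosome 1 read 9.52. Of the 19 genes, 4 lay below 0 in whole muscle and 3 in polysomes, and Angptl4 was the one nearest to Mt1 and Mt2. In monosomes 7 of 19 were higher and 0 lower by the threshold, which 17.2% and 11.5% of all probes met, with a median of 0.73 beside 0.099 over all probes. Without WT polysome 2 and WT monosome 2, 3 were higher and 1 lower (4.72% and 3.57% of all probes), with a median of 0.20 beside -0.015.

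Of 20 oxidative stress genes, 19 were tested, with no call in whole muscle (median -0.039 beside -0.026 over all probes). There was 1 in polysomes (median -0.050 beside 0.039), where Gpx1 (-1.02, SE 0.28), a peroxide-reducing enzyme, was lower as were 1.26% of all probes. Nfe2l2, which encodes the NRF2 activator of antioxidant response elements, differed by 0.20 (SE 0.997) in whole muscle and 1.07 (SE 0.997) in polysomes, without a call. The polysome difference rested largely on WT polysome 2, which read 5.31 where WT polysomes 1 and 3 read 7.44 and 7.48. The monosome difference of Nfe2l2, 2.91 (SE 1.22), met the threshold and rested on WT monosome 2, which read 1.73 where WT monosome 1 read 7.23. Hmox1, the heme-degrading enzyme, read 10.55, 6.72 and 7.84 in WT whole muscle and 6.90, 6.52 and 7.30 in Het, so its highest value came from WT mouse 1 as well. It was named after its values were seen, for its place beside Mt1 in the plot of the lists, and its differences of -1.46 (SE 1.04) in whole muscle and -1.85 (SE 1.04) in polysomes did not meet the study's threshold, whereas that of -2.88 (SE 1.28) in monosomes did (limma adjusted p = 0.141). In monosomes 2 of 19 were higher and 2 lower, beside 17.2% and 11.5% of all probes, and without WT polysome 2 and WT monosome 2 there were 0 higher and 2 lower, beside 4.72% and 3.57%. No gene of the 3 lists passed a limma adjusted p of 0.05 in whole muscle, polysomes or monosomes with all arrays fitted.

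**Figure D5:**
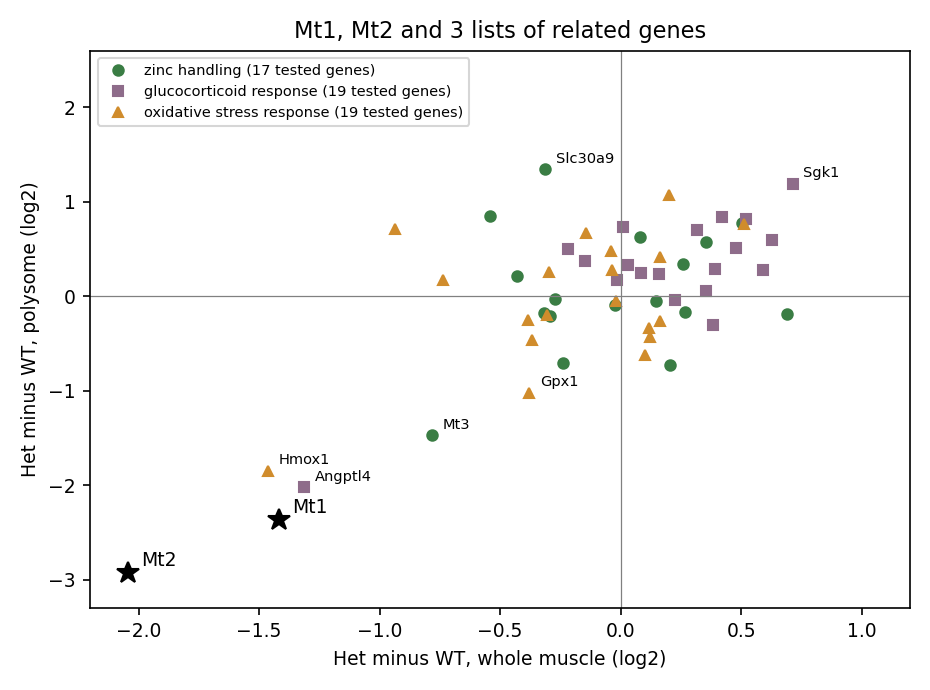
Difference between Het and WT (log2) in whole muscle (x axis) and polysomes (y axis) for the tested genes of 3 lists, 17 for zinc handling, 19 for glucocorticoid response and 19 for oxidative stress response, with Mt1 and Mt2 as stars. Mt1 and Mt2 lie at -1.42 and -2.04 in whole muscle and -2.37 and -2.93 in polysomes, with Angptl4, Hmox1 and Mt3 nearest to them and the other list genes between -1.02 (Gpx1) and 1.35 (Slc30a9) in polysomes.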

How the data were processed

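The 16 arrays were Agilent one-colour arrays of 62976 spots on 2 slides, read by the submitters with Agilent Feature Extraction 11.0.1.1 on an mm9 design. The deposited scanner files hold processed intensity per spot, background-subtracted by the authors' software and not normalized between arrays. The authors' processed table holds log2 values with column medians of 5.68 to 5.70 and served as an alternative. Its ranks matched the raw median signal of each array.

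From the intensity, log2 values were taken, outlier spots dropped, spots of a probe averaged and the 16 arrays quantile-normalized. A probe was tested if all arrays of 1 or more groups read it well above background (20250 probes, 15903 gene names). limma 3.58.1 (R 4.3.3) was fitted over 6 groups of genotype and RNA kind on all tested probes with Benjamini-Hochberg adjustment. Per-mouse ratios were fitted on the 6 mice. The script was tested on simulated data. Replicate numbers name mice, from the design text, so polysome and whole-muscle arrays of a number were paired, and their deviations from the group means correlated at 0.046 to 0.48. The 2 or 3 arrays a group limit the precision.

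Members, lists and markers were chosen with earlier results of these data known. Named were the Mt1 and Mt2 probes, Eif6, the 5 genes most like each member, list genes past the study's threshold and the regulators Mtf1, Slc30a1, Nr3c1 and Nfe2l2.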

Additional observations from a re-analysis of the deposited data

Results flagged for a closer look

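The log2 ratio of polysome to monosome signal of Mt2 was above 0 in both WT mice (0.38 and 0.37) and below 0 in both Het mice (-0.53 and -0.89), which put the genotypes on opposite sides. The Het mean less the WT mean was -1.09. The difference was not tested, and 5.03% of tested probes had ratios on the same opposite sides.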

How the results depend on the processing

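Of 128 alternative values of the 8 differences of Mt1 and Mt2, 26 equal the reported value by the design of the alternative. Of the other 102, 98 had its sign and 4 the opposite one. With array brightness as a term, the whole-muscle difference was 0.75 for Mt1 and 1.46 for Mt2, and the difference of the polysome to whole muscle ratio was -0.52 and -0.28. Without WT mouse 1, the monosome difference was 0.0029 for Mt1 and 0.97 for Mt2. With 75th percentile scaling the Mt2 ratio difference was -0.60. The cause of these shifts was not tested. Slide as a term gave -1.63 and -2.41 for Mt1 and Mt2 in whole muscle, -2.15 and -2.56 in polysomes, -1.63 and -1.91 in monosomes, and -0.85 and -0.72 for the ratio.

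Leaving out each mouse in turn gave -2.42 to -0.60 for Mt1 and -3.71 to -0.86 for Mt2 in whole muscle, -3.37 to -1.45 and -4.52 to -1.64 in polysomes, -3.26 to 0.0029 and -4.78 to 0.97 in monosomes, and -1.05 to -0.85 and -1.06 to -0.78 for the ratio. Adjusted limma p ranged over all alternatives from 0.0961 to 1 for Mt1 and 0.0789 to 1 for Mt2 in whole muscle, and from 0.114 to 0.998 and 0.108 to 0.743 in monosomes. Where a group kept 1 monosome array, its spread was taken from the other groups.

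The deviations of same-numbered mice of the 2 genotypes correlated at 0.221, -0.234 and -0.087 in whole muscle and at 0.446, -0.325 and -0.244 in polysomes for numbers 1, 2 and 3. Since not every pair was above 0, the numbers were not taken to pair mice across genotypes. With the replicate block across genotypes the whole-muscle differences were -1.42 (adjusted p = 0.767) and -2.04 (0.833), the polysome differences -2.37 and -2.93, and the monosome differences -2.09 (0.194) and -2.69 (0.289). Without pairing of a mouse's arrays, the SE of the ratio difference was 1.36 in place of 0.29 for Mt1 and 2.15 in place of 0.32 for Mt2, around values (-0.95 and -0.88) that the balanced design fixes. The alternative without WT polysome 2 and WT monosome 2 was chosen after seeing the data and gave -3.37 and -4.52 in polysomes. No value came from the second Mt1 probe, which was not well above background on any polysome array.

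List counts past the study's threshold were small. The zinc count in polysomes, 2 as reported, was 1 with normexp, in the authors' table, with brightness, among probes above background on all arrays and within slide 2, 0 within slide 1, and 1 to 3 with a mouse left out. The glucocorticoid count in polysomes, 2, was 1 within slide 1, with the methods' t-test and without WT polysome 2 and WT monosome 2, 0 within slide 2, and 1 to 2 with a mouse left out. The oxidative stress count in polysomes, 1, was 0 with 75th percentile scaling, with slide as a term and within slides 1 and 2, 2 with brightness and with the replicate block, 3 without WT polysome 2 and WT monosome 2, and 0 to 4 with a mouse left out. In whole muscle the 3 counts were 0 to 1 with a mouse left out, and the glucocorticoid and oxidative stress counts were 1 within slide 2.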
